A study of Caenorhabditis elegans with 4 samples.

Results

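The genes described here are 50 Caenorhabditis elegans genes of germline fate, oocyte formation and crossing over, a set given by name out of 19971 protein-coding genes on the nuclear chromosomes. All 50 were found in the gene table. They fall into 29 RNA regulators, 7 oocyte and egg genes, and 14 crossover and pairing genes. Binding was read from chromatin immunoprecipitation and sequencing (ChIP-seq) of EFL-1, an E2F-family transcription factor, with an affinity-purified rabbit polyclonal antibody in whole first-stage (L1) hermaphrodite larvae of the strain MT10430, genotype lin-35(n745), grown at 20 °C. The 4 samples are 2 EFL-1 ChIP samples and 2 inputs, and both kinds carry the lin-35(n745) mutation, so that no animals with intact lin-35 stand beside them. The stage label also carries the tag 26dC, which was not settled against the stated growth temperature. The deposited lists hold 4966 peaks combined from both replicates, 22275 peaks of replicate 1 and 22464 of replicate 2. They give no read counts, so the depth behind each peak is unknown.

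E2F factors bind gene starts with a DP partner and can activate or repress. LIN-35, the worm retinoblastoma homologue, acts with EFL-1 in the repressive DREAM complex, and in the gonad EFL-1 is known as a factor that promotes oogenesis. Germline RNA regulators set the choice between mitosis and meiosis and between sperm and oocyte, and hold maternal messages silent until the oocyte or embryo needs them. Crossover genes make meiotic DNA breaks, pair the homologues and turn some breaks into crossovers. In L1 larvae the germline consists of a few primordial cells, and peaks from whole larvae do not tell which cells were bound.

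A gene is called bound here when the centre of a combined peak lies within 500 bp of either end of the annotated gene. The gene table gives both ends but no strand, so that the end where transcription starts could not be picked out. A gene with no peak at either end therefore has none at the outer start of its annotated span, whereas a bound gene has a peak at that start or at its far end. Starts inside the span, as of shorter transcripts, were not looked at. The peaks are in WS220 coordinates and the gene ends in WBcel235. The offset between them was estimated from the mirror symmetry of peaks around low and high gene ends, and lay between -92 and 10 bp over 18 segments, each chromosome being cut into 3 equal lengths. It was between -32 and -9 bp in the left segments and between -92 and -19 bp in the right ones. Peak numbers are taken as the authors' ranks, with 1 the strongest, and pairs of numbers in parentheses are those of replicate 1 and replicate 2.

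EFL-1 peaks lay at a minority of the germline genes, and at about the share seen elsewhere in the genome. Of the 50 members, 12 were bound (24.0%), against 3913 of the 19921 other protein-coding genes (19.6%) and 19.7% of all 19971. By class, 7 of the 29 RNA regulators (24.1%), 1 of the 7 oocyte and egg genes (14.3%) and 4 of the 14 crossover and pairing genes (28.6%) were bound. The bound RNA regulators were car-1, nos-3, oma-1, oma-2, pos-1, puf-5 and spn-4. The bound oocyte and egg gene was chs-1, and the bound crossover and pairing genes were coh-3, coh-4, him-17 and him-5. With so few genes per class, a difference of a single gene moves a class share by several percentage points, and all of these shares are near the background. For the other 38 members, no combined peak centre came within 500 bp of either end. Moving the gene ends by the estimated offset of their segment changed the call of none of the 8 members between 300 and 700 bp from a peak. The bound one farthest out, car-1, went to 373 bp in place of 399 bp, and among the unbound ones gld-3 went to 518.5 bp in place of 548.5 bp.

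**Figure D1:**
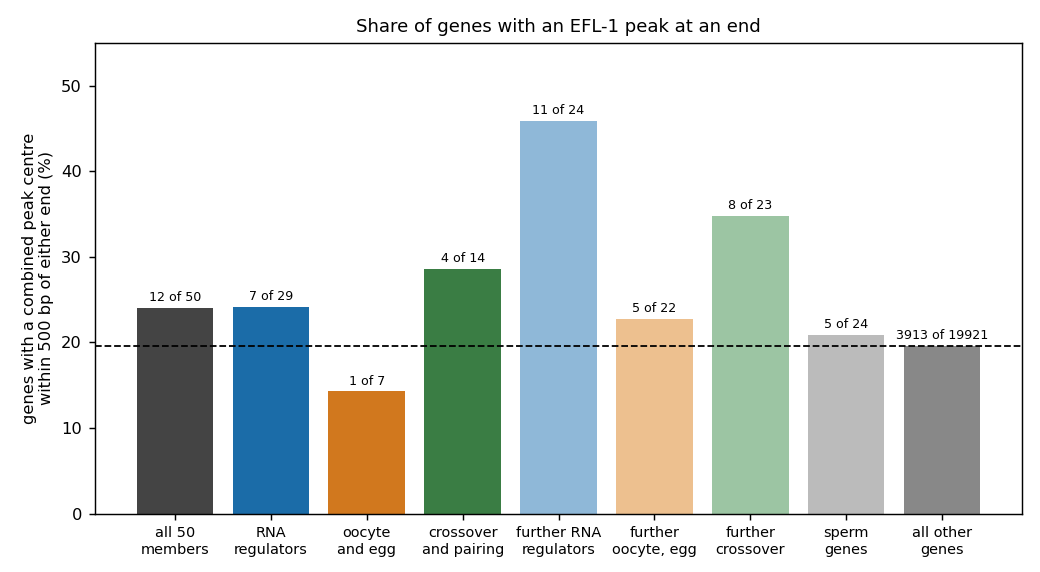
Percentage of genes with a combined EFL-1 peak centre within 500 bp of either gene end, for all members, their 3 classes, 4 lists of further genes and all other protein-coding genes. Labels give bound genes of all genes and the dashed line is the share of the other genes. The members' bar, at 24.0%, stands close to that line at 19.6%.

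The peaks at the 12 bound members were on the whole no stronger than those at other bound genes. Their combined peak numbers had a median of 2490 and ran from 15 to 4807, while those of the other bound genes had a median of 1893 and ran from 1 to 4966. In the stronger 50% of the list lay 6 of the 12 members' peaks (50.0%), against 2420 of the 3913 others (61.8%). The peak number was at most 1000 at 4 of the 12 members (33.3%), against 1149 of the others (29.4%). The classes were not alike in this. Of the 7 bound RNA regulators, 5 had a peak in the stronger 50%, and so did chs-1, whereas none of the 4 bound crossover and pairing genes did. This contrast rests on peak numbers alone. The rounded scores at coh-4 and him-5 were 4.0 in replicate 1 and 3.88 in replicate 2, the same as at oma-2. All combined peaks had the same score.

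The strongest peak stood at oma-2, which encodes a zinc finger protein that, redundantly with oma-1, is needed for oocyte maturation. It was combined peak 15, on chromosome V from 8031152 to 8031556 in WS220 coordinates, number 32 in replicate 1 and number 10 in replicate 2. Its centre was 140 bp outside the high-coordinate end of oma-2 and 57 bp from an end of the neighbouring gene vars-1, so that vars-1 was the nearer gene. The paralogue oma-1 was also bound, by combined peak 836 on chromosome IV from 8891204 to 8891446. That peak was number 941 in replicate 1 and 763 in replicate 2. It lay 326 bp from oma-1 and 137 bp from spr-2. Both members of this pair were thus bound, each beside a neighbour that lay closer to the peak.

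The Nanos family was split. nos-3, a Nanos-like partner of the FBF proteins in the switch between sperm and oocytes, had combined peak 573 on chromosome II from 9746076 to 9746334, number 625 in replicate 1 and 562 in replicate 2. The centre was 111 bp from nos-3 and 127 bp from Y53C12B.1. nos-1 and nos-2, which act in the primordial germ cells, were not bound, and their nearest combined peaks were 1351 and 5647.5 bp away. At nos-1 a weak peak was listed in replicate 2 alone, as number 8505, and at nos-2 in neither replicate.

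spn-4, car-1 and pos-1 had peaks of intermediate or low strength that both replicates placed among their strongest 4966. spn-4, an RNA-binding protein of the early embryo, had combined peak 1323 (number 1504 in replicate 1 and 1136 in replicate 2), 369 bp from its end and 185 bp from spe-39. car-1, an Lsm-domain protein of germline RNA granules, had combined peak 1718 (1469 and 2090), 399 bp from its end, and was the single bound member with no other protein-coding gene end within 500 bp of the peak. pos-1, a zinc finger protein of posterior fate in the embryo, had combined peak 4307 (4945 and 4569), 354.5 bp from its end and 248.5 bp from vha-18. The peak at puf-5, a Pumilio-family repressor in oocytes, rested mainly on 1 replicate. It was combined peak 4156, 52.5 bp from its end, and number 3941 in replicate 1, but number 18403 in replicate 2, where its score was 0.0738 against a top score of 3.88.

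Apart from nos-3, the members named here that act in stem cell maintenance, meiotic entry and the choice between sperm and oocyte had no combined peak at an end. The same held for 16008 of the 19921 other genes. This group was not a planned class, and its difference from the other genes was not tested. fbf-1 and fbf-2, the PUF repressors that keep germline stem cells, had nearest combined peaks 16582 and 6145 bp away. gld-1, which encodes a translational repressor that acts in meiotic entry and oogenesis, had none within 2851 bp. For gld-2, the cytoplasmic poly(A) polymerase, and its partners gld-3 and rnp-8 the distances were 3407.5 bp, 548.5 bp and 1795.5 bp. fog-1 and fog-3, which specify sperm, were 5703.5 bp and 7951.5 bp from a combined peak. daz-1 was 15522.5 bp away and cpb-3 was 15761 bp away. Inside the gene, more than 500 bp from either end, gld-2 had 2 combined peaks and rnp-8 had 1. Weak peaks stood at an end in both replicates at fog-1 (11075 and 10064), gld-2 (18166 and 17294) and rnp-8 (19768 and 18332).

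The zinc finger and KH proteins of the oocyte-to-embryo transition divided as well. mex-5 and mex-6, paralogues that polarize the embryo, were both unbound, at 14389 and 31223.5 bp, with no peak of either replicate at an end. mex-3 was likewise without any, at 12396.5 bp. mex-1 and pie-1 had combined peaks 968 and 593 bp away, and cgh-1, an RNA helicase that works with CAR-1, had one at 709.5 bp. lin-41, a regulator of oocyte growth, was 1457.5 bp from the nearest. The PUF genes puf-8, puf-3 and puf-11 were unbound, at 3583, 3088.5 and 6247 bp. puf-3 and puf-11 had a weak peak in replicate 1 alone, numbers 17451 and 14497. The sources do not say how reads that match more than 1 place were treated, so the calls at close paralogues (puf-3 and puf-11, fbf-1 and fbf-2, egg-1 and egg-2, coh-3 and coh-4) are less certain.

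**Figure D2:**
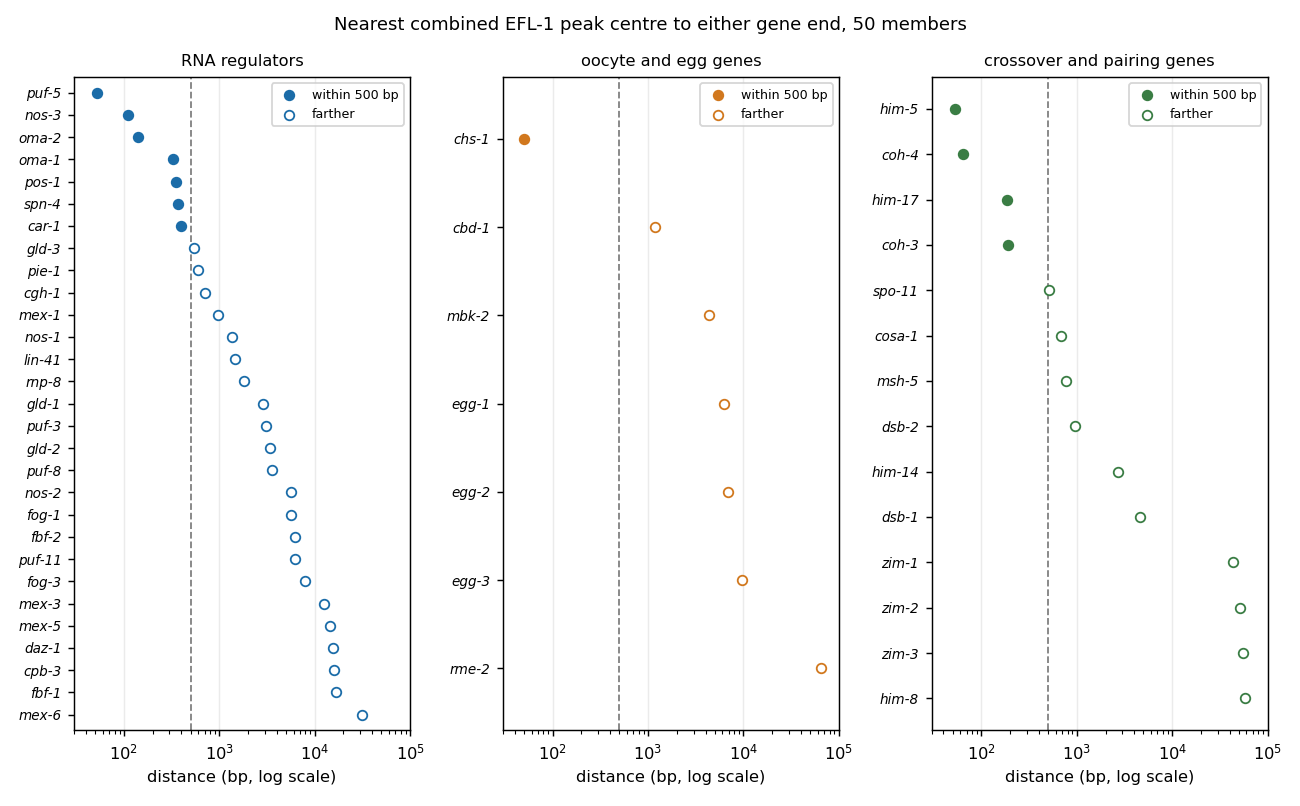
Distance in bp (log scale) from either gene end to the nearest combined peak centre for each of the 50 members, by class; filled points lie within 500 bp (dashed line) and open points farther away. The filled points run from 50.5 bp at chs-1 to 399 bp at car-1, and spo-11, at 509 bp, is the nearest open one.

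Among the oocyte and egg genes, chs-1, the chitin synthase that builds the eggshell, was the bound one. Its combined peak was number 927, on chromosome I from 7559560 to 7559799, number 1062 in replicate 1 and 829 in replicate 2. The centre was 50.5 bp from the end of chs-1 and 159.5 bp from T25G3.3. cbd-1, an eggshell chitin-binding protein, had its nearest peak 1184.5 bp away. The oocyte surface proteins egg-1 and egg-2 were 6179.5 bp and 6938.5 bp from a peak, and egg-3 was 9725.5 bp away. rme-2, the yolk receptor of oocytes, was the member farthest from any combined peak, at 64792.5 bp, and neither replicate listed a peak at its ends. mbk-2, a kinase of the oocyte-to-embryo transition and the longest member at 26804 bp, had none at its ends but 4 combined peaks inside it, more than 500 bp from either end.

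The bound crossover and pairing genes were coh-3, coh-4, him-5 and him-17. By peak number, all 4 of their peaks were in the weaker 50% of the list. Genes of break formation fell on both sides of the call: him-5 and him-17 were bound, whereas spo-11, dsb-1 and dsb-2 were not. coh-3 and coh-4 encode a redundant pair of meiotic kleisins, the ring-closing subunits of cohesin, and both were bound. coh-4 had combined peak 3262, number 3059 in replicate 1 and 3540 in replicate 2, 63.5 bp from its end. coh-3 had combined peak 4807, number 4077 in replicate 1 but 20070 in replicate 2, where its score was 0.0374. him-5, needed for breaks on the X chromosome, had combined peak 3904 (3701 and 3655) 52.5 bp from its end. him-17, a chromatin-associated protein needed for break formation, had combined peak 4082 (5737 and 3028) 184.5 bp from its end. At all 4 the member's end was the gene end nearest to the peak centre.

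The other genes of break formation and the genes that mature crossovers were not bound under this rule, though several lay close to it. spo-11, the break-making topoisomerase-like enzyme, missed narrowly, at 509 bp. It became bound when gene ends were moved by +100 bp, whereas with the offset estimated for its segment, -7 bp, it would lie at 516 bp. cosa-1, which marks crossover sites, was 678.5 bp away, and the MutS homologue msh-5 771.5 bp. Its partner him-14 was 2732.5 bp away. dsb-1 and dsb-2, a related pair that promotes break formation, were 4621 and 947 bp away.

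The genes of the pairing-centre proteins had no combined peak near an end, though him-8 and zim-3 had a weak peak in both replicates. him-8 and zim-1, zim-2 and zim-3 encode zinc finger proteins that each bind the pairing centres of particular chromosomes, and they lie close together on chromosome IV. Their nearest combined peaks were 43055.5 bp (zim-1), 51618.5 bp (zim-2), 54684.5 bp (zim-3) and 57874.5 bp (him-8) away. Because these genes are neighbours, the distances are not separate observations. The nearest combined peak was also more than 10000 bp away at 7281 of the 19921 other genes (36.5%). The strongest replicate peak at him-8 and at zim-3, whose facing ends are 476 bp apart, was the same weak one, number 10114 in replicate 1 and 7508 in replicate 2. zim-1 and zim-2 had none.

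Sharing of peaks with a neighbour was common at the members. At 11 of the 12 bound members (91.7%) another protein-coding gene had an end within 500 bp of the same peak, against 2355 of the 3913 other bound genes (60.2%). Close neighbours were frequent with and without a peak. A neighbour's end lay within 1000 bp of 11 of the 12 bound and 35 of the 38 unbound members, against 3537 of the 3913 bound (90.4%) and 12353 of the 16008 unbound other genes (77.2%). When each peak was given to its nearest gene end alone, 8 members were bound (16.0%), against 13.9% of the other genes, and oma-1, oma-2, pos-1 and spn-4 lost theirs. All 12 peak centres lay outside the member's own annotated span, as did 3516 of the 3913 at other bound genes (89.9%). No member had combined peaks at both ends, whereas 382 of the other bound genes (9.76%) did.

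Both replicates listed a peak overlapping the combined one at each of the 12 bound members. Overlapping peaks of both replicates likewise stood at an end of 3872 of the 3913 other bound genes (98.95%). The combined list was drawn from both replicates. Overlap with it, and closeness to its centres, are therefore not separate evidence for the calls. At the bound members the peak number had a median of 2281.5 in replicate 1, from 32 to 5737, and a median of 2559 in replicate 2, from 10 to 20070. The centres of the replicate peaks lay a median of 6.5 bp (replicate 1) and 7.0 bp (replicate 2) from the combined centre, and at most 92 bp (him-5, replicate 1) and 38 bp (coh-3, replicate 2). With as many of its strongest peaks as the combined list holds, replicate 1 alone gave 11 bound members (22.0%, against 19.4% of other genes) and replicate 2 alone 10 (20.0%, against 19.2%). Both replicates placed 9 of the 12 among their strongest 4966 peaks. The exceptions were him-17 in replicate 1, and puf-5 and coh-3 in replicate 2. For puf-5 and coh-3 the combined call therefore goes with a high rank in replicate 1 only.

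**Figure D3:**
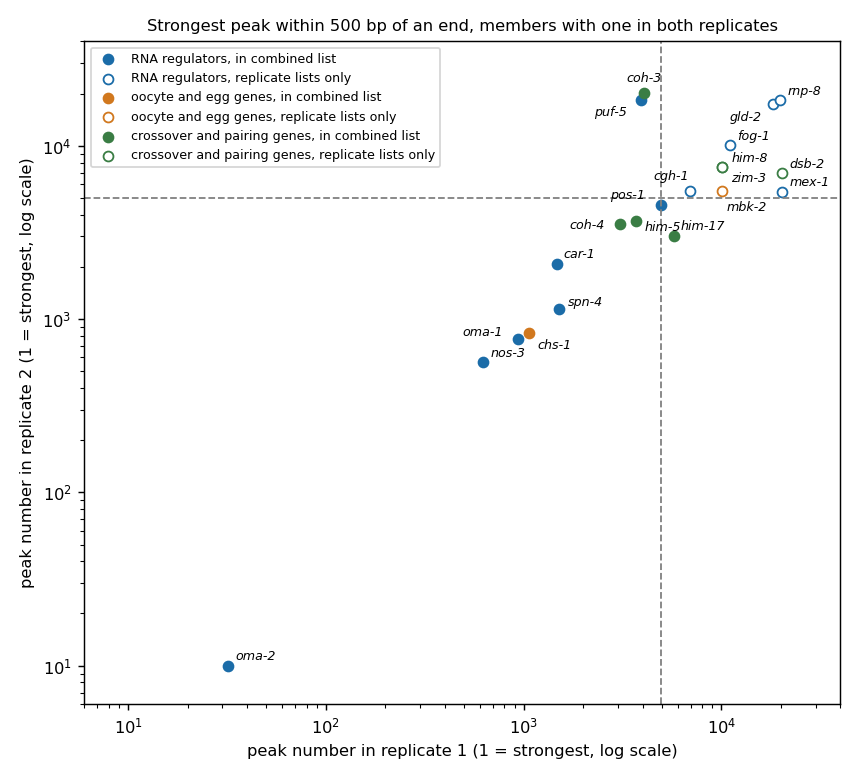
Peak number in replicate 2 against replicate 1 (log scales, 1 is strongest) of the strongest peak within 500 bp of an end, for the 21 members that had one in both replicates; filled points are bound in the combined list and dashed lines mark number 4966. oma-2 stands alone at the strong end (32 and 10), and puf-5 and coh-3 sit high on the replicate 2 axis. him-8 and zim-3 share 1 point.

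In the full replicate lists, which hold many weak peaks, 27 members had a peak at an end in replicate 1 (54%, against 44.3% of other genes) and 31 in replicate 2 (62%, against 44.9%). In both replicates it was 21 members (42%), against 33.3% of the other genes. Among the 38 members with no combined peak, 7 had overlapping peaks of both replicates at an end (18.4%), against 12.7% of the unbound other genes. These were cgh-1, gld-2, mex-1, rnp-8, mbk-2, him-8 and zim-3. At cgh-1 the strongest peaks at an end were number 6899 in replicate 1, the lowest number of the 7 there, and 5496 in replicate 2, where mex-1 had a lower one, 5425. At the other end, 13 of the 38 had no peak of either replicate at an end (34.2%), against 54.8% of the unbound other genes.

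In wider windows the members stood above the other genes by their counts, with no test of the difference. The median distance from a gene end to the nearest combined peak was 2791.75 bp for the members and 5546.5 bp for the other genes. Within 100 bp lay a peak of 4 members (8.0%, against 4.51% of other genes), within 1000 bp of 20 (40.0%, against 24.8%) and within 2000 bp of 24 (48.0%, against 32.6%). Within 10000 bp it was 39 members (78.0%, against 63.5%). The share of members was above that of other genes at every window drawn, and the gap at 300 bp was the narrowest, at 16.0% against 15.1%. These windows hold the same peaks and genes, so they are a single description. No member lies on chromosome X, where peaks are sparse, and the table of other genes includes it.

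**Figure D4:**
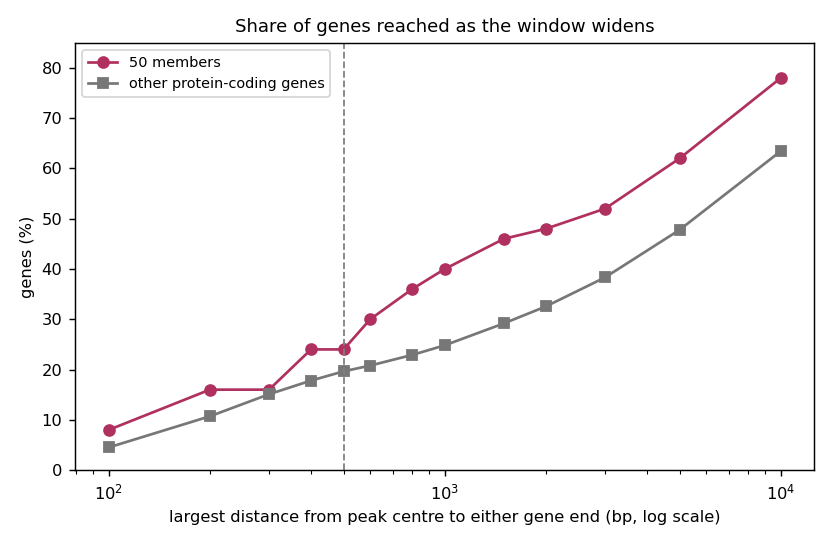
Percentage of genes with a combined peak centre within a given distance of either end (log scale), for the 50 members and for the 19921 other protein-coding genes; the dashed line is at 500 bp. The members' curve is above the other at each distance, by 24.0% against 19.6% at 500 bp and by 40.0% against 24.8% at 1000 bp.

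The bound members were spread unevenly over the chromosomes. All 7 members on chromosome V were bound, against 662 of its 4988 other genes (13.3%). They are oma-2, pos-1, spn-4, coh-3, coh-4, him-17 and him-5, which come from 2 of the 3 classes. No oocyte and egg gene of the set lies on V. All bound crossover and pairing genes are on V and all unbound ones elsewhere. The share of that class and the count on V are therefore not separate observations. Of the 43 members elsewhere 5 were bound. On chromosome I it was 2 of 10, against 28.5% of other genes. On chromosome II it was 2 of 14 (20.0% of other genes), on III 0 of 5 (29.96%) and on IV 1 of 14 (19.6%). If each member were as likely to be bound as the other genes of its chromosome, 10.8 of the 50 would be (21.6%), beside the 12 found. The count per chromosome was looked at after the calls were known, and its part in the total was not tested.

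**Figure D5:**
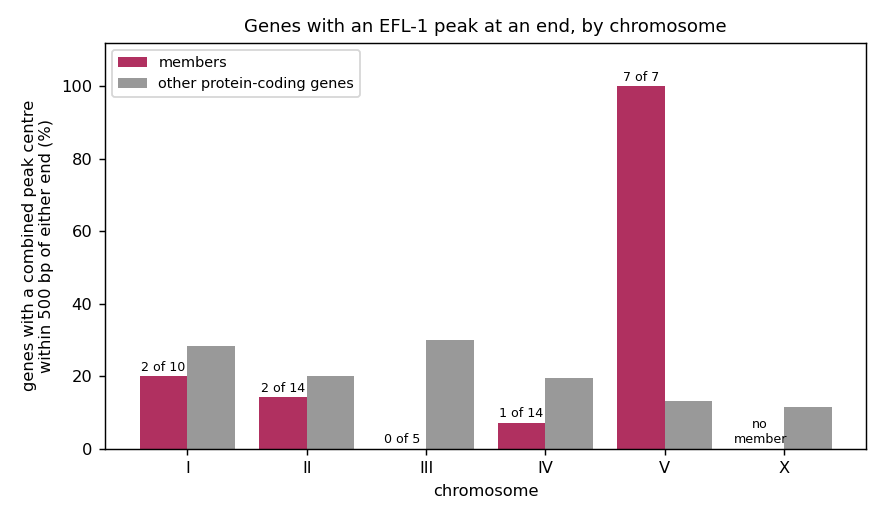
Percentage of members (left bars, labelled with bound of all members) and of other protein-coding genes (right bars) with a combined peak centre within 500 bp of either end, by chromosome. All 7 members on V are bound, and on I, II, III and IV the members' bars are below those of the other genes.

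Lists of further genes, put together for the same processes and for sperm, were set beside the members. Whether each gene belongs to these processes was not checked. Of 24 further genes listed as germline RNA regulators, 11 were bound (45.8%), with the strongest peaks at puf-9 (166), sqd-1 (212) and ifet-1 (214). Of 23 further crossover and pairing genes, 8 were bound (34.8%), with the strongest at brc-1 (426), rec-1 (575) and pch-2 (683). By peak number, all 8 of these had peaks in the stronger 50% of the list, in contrast to none of the 4 bound members of that class. Of 22 further oocyte and egg genes, 5 were bound (22.7%), with mei-2 (165) foremost. Of 24 sperm genes, 5 were bound (20.8%), close to the 19.6% of all other genes. They included spe-42 (22), and spe-39, which shares its peak with spn-4. Several listed genes, such as those of the RNA-processing machinery and of DNA repair, also act outside the germline. The lists were drawn up by name, and the germline role of each gene was not checked.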

How the data were processed

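The authors deposited a peak list for each EFL-1 ChIP replicate and 1 combined list. Per the file headers the coordinates are WormBase WS220, and the source field of each line names SPP and IDR; the aligner, versions, thresholds and the use of the inputs are not given in the sources. The score the authors deposited has no stated unit and is the same in all combined peaks, so peaks were ranked by the number in their name. In the replicate lists scores rose with that number by at most 0.000114 between successive peaks; among the 5002 and 3810 peaks tied at the top score of replicate 1 and replicate 2, and in the combined list, the order could not be checked. Other deposited values used are the start and end of each peak. Replicates are numbered as in the sample titles. Inputs were not analysed here.

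Gene names and ends came from RefSeq, assembly WBcel235. No coordinates were converted. Distances, shares and medians were computed in Python 3.11.15 with numpy 2.4.6 and pandas 2.3.3, and drawn with matplotlib 3.10.9. The rule named gene starts; without strands either end was used. The calls and the offset estimate were tested on simulated peaks. The offset was to be read from medians within 500 bp, but such a window draws medians towards 0, and mirror symmetry was used. Lists are described by counts beside all other genes, with no test, since peak lists hold no replicate counts per gene. The motif comparison was not run, for want of sequence. Members, lists and rules were chosen with earlier results of these data known. Genes named in full were the bound members, all unbound members, related pairs and, in each further list, at most 3 with the lowest peak numbers. In the table, 2 further RNA regulators and 2 further crossover genes were not found under the names listed.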

Additional observations from a re-analysis of the deposited data

How the results depend on the processing

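The low or high gene end alone, full replicate lists and unshared peaks were chosen after the data were seen. A count within 1.5 times the main count was taken as unmoved, so that 8 bound members in place of 12 still counted as unmoved. The median peak number was held to a closer limit than the counts. For the median peak number, 2490, the replicate 1 value of 2281.5 was counted as moved and the replicate 2 value of 2559 as unmoved. Of the alternative values, 43 were unmoved and 34 moved, none of them with a test. The tally includes autosomes alone, which could not move the members' counts, since no member lies on X. Members are counted again within their classes, so the values are not separate checks. The count of 12 bound members became 8 within 200 bp, 14 with gene ends moved by +100 bp, 13 with -100 bp and 14 when any part of a peak counted. Within 1000 bp it was 20 (40.0%, against 24.8%), among them 11 RNA regulators and 8 crossover and pairing genes. Within 200 bp, 3 RNA regulators and 2132 other genes were bound, and 3 RNA regulators when each peak went to its nearest end alone. In the stronger 50% of peaks, 6 members (12%), 0 crossover and pairing genes and 2420 other genes (12.1%) were bound, so that the members' higher share was absent there. At low ends alone the counts were 5 members, 3 RNA regulators, 0 oocyte and egg genes, 2 crossover and pairing genes and 2109 other genes; at high ends alone they were 7, 4, 1, 2 and 2186. The full replicate 1 list gave 27, 17, 3, 7 and 8827, and the full replicate 2 list 31, 16, 4, 11 and 8945. Peaks at no other gene's end left 1, 1, 0, 0 and 1558 (2.0% of members, against 7.82% of other genes). With the strongest 4966 peaks of 1 replicate, 10 to 11 members were bound (20.0% to 22.0%, against 19.2% and 19.4% of other genes), 6 to 7 RNA regulators, 3 crossover and pairing genes and 1 oocyte and egg gene. The bound members' median number was 2281.5 in replicate 1. Stricter and wider rules change counts by construction; other causes were not tested. No paired analysis was possible because the result comes from peak lists, with no comparison of 2 groups of samples. Without strand or read depths, neither the bound end nor the strength of a site could be measured.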
